A study of Mus musculus and Homo sapiens with 20 samples.

Results

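The Hoxc cluster is one of the groups of Hox genes in mammals and holds 9 genes, Hoxc4, Hoxc5, Hoxc6, Hoxc8, Hoxc9, Hoxc10, Hoxc11, Hoxc12 and Hoxc13. The genes were taken by their GENCODE symbols, and all 9 were found among the 21938 protein-coding genes of the mouse annotation and, in upper case, among the 20033 of the human one. The study's 20 deposited CUT&Tag peak lists, 2 per group, were searched at these genes. CUT&Tag cuts and tags DNA next to a protein or a modified histone that an antibody has bound, and a peak is a stretch where a peak caller placed signal. The antibodies were against H2AK119ub, ubiquitin on a lysine of histone H2A, and H3K27me3, trimethylation of a lysine in the tail of histone H3. The mouse cells were Tet2 WT and Tet2 KO embryonic stem (mES) cells, grown with LIF, CHIR99021 and PD0325901, and Tet2 WT and Tet2 KO hematopoietic stem and progenitor cells (HSPCs), which are lineage-negative, c-Kit-positive (LK) cells sorted with magnetic beads from the bone marrow of mice 6 to 8 weeks old. The study's methods give 1 WT and 1 KO mES line, obtained from another laboratory. The human cells were K562, an erythroleukemia cell line grown, per the labels, with puromycin, transfected with a control siRNA (siControl) or with an siRNA against MBD6 (siMBD6) and profiled for H2AK119ub alone. The labels give no TET2 genotype for the K562 libraries. The study's own library list places MBD6 siRNA for this mark in TET2 KO K562 cells and control siRNA in both WT and TET2 KO cells, and whether these libraries are among them is not given, so the TET2 background of either K562 group is unknown here. The study's methods call CUT&Tag replicates biological but do not say whether these were separate cultures or animals, so the p-values measure the spread between these libraries alone.

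Hox genes encode homeodomain transcription factors that give cells their position along the body axis, and within a cluster their order on the chromosome matches the order of their domains in the embryo. Polycomb repressive complex 1 deposits H2AK119ub and Polycomb repressive complex 2 deposits H3K27me3, and silent Hox clusters are a textbook target of both. TET2 oxidizes 5-methylcytosine, and MBD6 is a subunit of the PR-DUB complex, whose BAP1 enzyme removes ubiquitin from H2AK119. A list of peaks records where signal was called and not how strong it was, so every value below is a covered percent, that is the share of the bases of a gene, window or cluster lying under a peak.

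In mm10 the cluster lies on chromosome 15 from 102921103 to 103036852, which is 115.8 kb, and all 9 genes are on the plus strand, with Hoxc13 first and Hoxc4 last. Hoxc13 (ENSMUSG00000001655.6), a regulator of hair and nail, occupies 102921103 to 102928814. It is followed by Hoxc12 (102936757 to 102938609), by Hoxc11 (102954427 to 102957708), a member of the group that patterns the middle segment of the limb, and by Hoxc10 (102966796 to 102971893), which acts in the lumbar spinal cord and hindlimb. Hoxc9 (102976439 to 102985099) sets thoracic motor neuron identity, and Hoxc8 (102990607 to 102994111) acts in brachial motor neurons and ribs. Hoxc6 (102998257 to 103011881) acts in motor neurons of the forelimb, Hoxc5 (102967443 to 103017429) in the phrenic motor column, and Hoxc4 (103018934 to 103036852) is also used by B cells, where it drives the gene for the deaminase AID. The records of Hoxc5, Hoxc6 and Hoxc4 join long transcripts to short ones. The principal transcript of Hoxc5 starts at 103013815, that of Hoxc6 at 103009573 and that of Hoxc4 at 103034395. The Hoxc5 record therefore spans Hoxc9, Hoxc8 and Hoxc6, and the span values of Hoxc5 include these genes. Its principal transcript alone was covered to 100% in all 16 mouse libraries, so no difference in Hoxc5 span below lies in that transcript. In hg38 the HOXC cluster lies on chromosome 12 from 53938831 to 54056030, which is 117.2 kb, in the same gene order and also on the plus strand.

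A pair of microRNA genes lie inside the cluster, and their mature sequences are shown because both hairpins were under a peak over their whole length in all 16 mouse libraries. Mir196a-2 lies between Hoxc10 and Hoxc9, and Mir615 lies inside Hoxc5. The seed, bases 2 to 8, is in capitals, and the sequences and the GRCm38.p6 positions on chromosome 15 are from RefSeq.
mmu-miR-196a-5p, 102973365 to 102973386: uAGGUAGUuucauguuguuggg
mmu-miR-196a-2-3p, 102973401 to 102973422: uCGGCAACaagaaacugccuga
mmu-miR-615-5p, 103014926 to 103014947: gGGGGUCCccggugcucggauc
mmu-miR-615-3p, 103014969 to 103014990: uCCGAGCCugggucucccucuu
The family of miR-196 is known for targeting Hox messages, Hoxb8 and Hoxc8 among them. In the table used, the seed AGGUAGU was shared by 2 mature miRNAs, miR-196a-5p and miR-196b-5p, and the other 3 seeds each belonged to 1. In K562 the MIR196A2 hairpin was covered in full in all 4 libraries, whereas MIR615 was at 0% in all 4.

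The 3 stretches of the mouse cluster below are shown because the peak lists agreed on them. Each has 300 bases of the plus strand of GRCm38.p6, with the motif CG (CpG) in capitals, a motif that reads the same on both strands and cannot overlap itself. The first is the middle of a stretch of 1093 bp that no mouse H2AK119ub library covered, the second is the middle of the longest stretch that all 16 mouse libraries covered, and the third is centred on an edge where H3K27me3 peaks ended in all 4 mES libraries.
Uncovered for H2AK119ub, chr15:103029463-103029762: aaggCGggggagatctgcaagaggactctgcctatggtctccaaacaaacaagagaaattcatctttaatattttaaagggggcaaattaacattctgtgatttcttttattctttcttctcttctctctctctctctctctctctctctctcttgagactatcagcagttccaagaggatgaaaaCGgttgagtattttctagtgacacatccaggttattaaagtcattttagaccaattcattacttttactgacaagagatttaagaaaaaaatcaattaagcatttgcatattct
Covered in every mouse library, chr15:102977857-102978156: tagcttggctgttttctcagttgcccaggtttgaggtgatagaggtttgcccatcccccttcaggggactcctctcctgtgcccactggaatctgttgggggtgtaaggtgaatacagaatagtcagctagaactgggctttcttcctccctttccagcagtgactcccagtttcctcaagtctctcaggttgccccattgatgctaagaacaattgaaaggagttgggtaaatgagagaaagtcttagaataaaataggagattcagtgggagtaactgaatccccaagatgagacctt
Shared end of mES H3K27me3 peaks, chr15:103042533-103042832: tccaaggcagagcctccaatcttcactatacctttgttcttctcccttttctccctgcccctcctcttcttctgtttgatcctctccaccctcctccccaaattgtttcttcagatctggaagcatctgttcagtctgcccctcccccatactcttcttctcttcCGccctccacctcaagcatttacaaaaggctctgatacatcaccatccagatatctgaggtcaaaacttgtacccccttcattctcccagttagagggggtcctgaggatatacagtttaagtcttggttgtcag
The uncovered stretch lies within the Hoxc4 record, between its first and last transcript starts, and its printed bases held 2 CpG. The covered stretch, inside Hoxc9, held 0 CpG, and the edge beyond Hoxc4, where no gene is annotated, held 1. Of 32851 RefSeq promoters of 300 bases, 94.6% held at least 1 CpG and the median was 7. Over the mouse cluster the tiles covered in full for H2AK119ub were the richer in CpG. Of 115 tiles of 1 kb, the 31 that all 4 HSPC H2AK119ub libraries covered in full had a median of 33 CpG and the other 84 a median of 12, and in the mES H2AK119ub libraries the 71 fully covered tiles had a median of 20 and the other 44 a median of 8. In K562 only 11 of 117 tiles were covered in full in all 4 libraries, with a median of 28 CpG against 21 in the other 106, but the 62 tiles under 50% on average also had a median of 21. Across tiles, which lie side by side and share libraries, Spearman's rho between CpG count and mean H2AK119ub coverage was 0.432 in mES cells, 0.443 in HSPCs and 0.0562 in K562, and for H3K27me3 in mES cells it was 0.231.

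The lists held 85098 to 167326 peaks and covered 4.50% to 9.82% of the known bases of the genome. They hold positions alone, so the depth of the libraries is unknown. The markers set out for each cell type separated the cells only in part by these marks. The promoter windows of Pou5f1, Nanog, Sox2 and Klf4 were 0% to 12.2% covered by H3K27me3 in mES cells and 100% in all 4 HSPC libraries. Those of Spi1, Runx1, Cd34 and Mpo were less covered by it in every HSPC library than in any mES library. Esrrb, Zfp42, Kit, Ptprc and Gata2 did not separate the cells in this way. Of 6 mES markers, 2 (Pou5f1 and Nanog) had promoter windows free of H3K27me3 peaks in all 4 mES libraries, whereas the Esrrb window was 85.1% to 100% covered there, and Zfp42 was free in all 4 HSPC libraries. Of 7 HSPC markers, 2 (Ptprc and Mpo) were free in all 4 HSPC libraries, whereas the Gata2 window was at 100% in all 4 and the Kit window at 38.3% to 66.3%. In K562 the HBG1 window held no H2AK119ub peak in any of the 4 libraries, while KLF1 was 94.1% to 100% and TAL1 62.8% to 88.4% covered. Peak lists hold no measure of Tet2 or MBD6 transcripts, so neither the KO nor the knockdown could be checked at its target.

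In HSPCs, H3K27me3 covered the whole Hoxc cluster as 1 unbroken peak in all 4 libraries. Its width was 281960 and 281756 bp in the WT libraries and 284845 and 283740 bp in the Tet2 KO libraries, and in each list it was the widest of all peaks. The peak started 49.7 and 49.4 kb before Hoxc13 in the WT libraries and 52.2 and 51.2 kb before it in the KO libraries, and it ended 117 kb past the end of Hoxc4 in all 4, so that the KO peaks were the wider and began the earlier in both libraries. All 9 genes and all 9 promoter windows, which reach 1 kb to either side of a gene's start, were therefore covered to 100% in all 4 libraries. Among all protein-coding genes, 3.38% had a span and 14% a promoter window covered in full in every one of these libraries. When the genome was tiled into 23506 windows of the cluster's length, 2 windows per library were fully covered, and none of them lay more than 250 kb from the cluster.

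**Figure D1:**
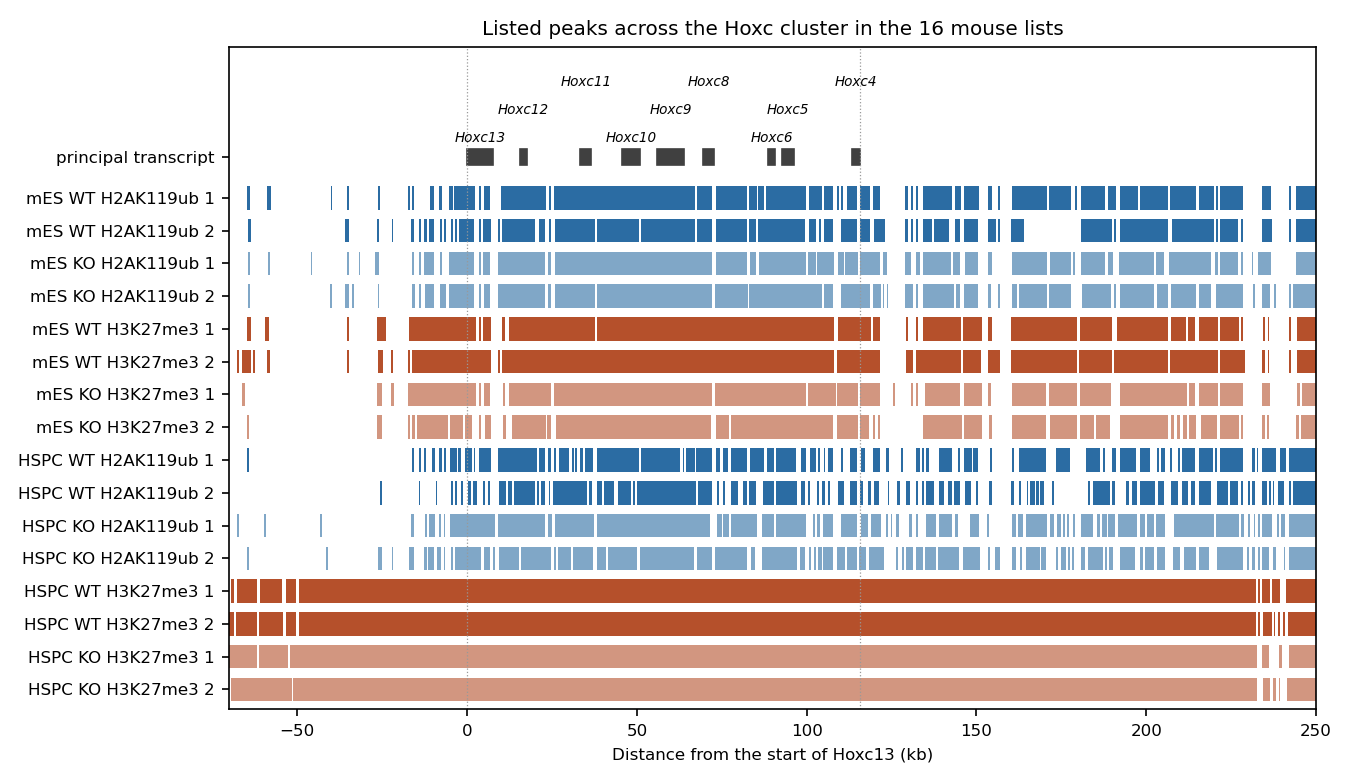
Listed peaks (bars) along the Hoxc cluster in the 16 mouse libraries, one row each, against the distance from the start of Hoxc13 in kb, with blue for H2AK119ub, orange for H3K27me3, paler bars for Tet2 KO and dotted lines at the cluster's ends. In the 4 HSPC H3K27me3 rows 1 peak spans the cluster and reaches 117 kb past Hoxc4, whereas the mES and H2AK119ub rows break up within and beyond the cluster.

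The right end of that peak lay by the nearest protein-coding gene on the Hoxc4 side, Smug1, which encodes a uracil-DNA glycosylase. Smug1 is on the minus strand, and its 3' end lies 116.4 kb past the cluster. The Smug1 span was 71.3% and 64.5% covered by H3K27me3 in the WT HSPC libraries and 53.9% and 60.6% in the KO libraries. The next gene, Cbx5, which encodes heterochromatin protein 1 alpha, was 0.899% to 1.45% covered in the same libraries. On the Hoxc13 side the nearest protein-coding gene, Calcoco1, is 198.9 kb away and was 10.3% to 25.9% covered, and Atp5g2, an ATP synthase subunit gene beyond it, was 18% to 32.2% covered. The promoter windows of these genes were more covered than their spans in the same libraries. They were at 100% for Smug1 and Atp5g2, 71.6% to 80.6% for Cbx5 and 55.4% to 93.6% for Calcoco1.

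Within mES cells the cluster was broken at recurring places. H3K27me3 covered 93.2% and 96.8% of the cluster in the WT libraries and 91.7% and 87.3% in the Tet2 KO libraries, in 4 to 11 peaks. The widest of them was 69687 and 97769 bp in WT and 46542 and 45680 bp in KO, rank 7, rank 2, rank 37 and rank 4 by width in their lists. One stretch of at least 1 kb was uncovered in all 4 libraries, 2174 bp long and from 7.03 to 9.20 kb past the Hoxc13 start, over the end of Hoxc13 and the space before Hoxc12. On the other side the peaks ended at 121.6 kb from the Hoxc13 start, past Hoxc4, with a range of 168 bp over the 4 libraries. A domain made by joining peaks up to 2 kb apart was 111.3 and 112.3 kb wide in WT and 111.1 kb in both KO libraries, from just past the end of Hoxc13 to that edge.

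H2AK119ub covered 86.3% and 84.2% of the cluster in the WT mES libraries and 88.9% and 89.9% in the KO mES libraries, in 11 to 19 peaks. In all 4, 3 stretches of at least 1 kb were uncovered, one inside Hoxc13, one of 2045 bp at the end of Hoxc13, and the 1093 bp shown above. Of the cluster, 80.3% was covered in all 4 libraries and 6.81% in none. The joined domain was 111.6 and 98.6 kb wide in WT and 114.6 and 98.6 kb in KO, so the genotypes overlapped.

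In HSPCs H2AK119ub was the more broken of the marks. It covered 74.4% and 69.1% of the cluster in the WT libraries, in 30 and 32 peaks, and 86.6% and 83.3% in the KO libraries, in 14 and 23 peaks. Only 55.4% of the cluster was covered in all 4 libraries, and 1 stretch of at least 1 kb, 1176 bp long and in the same place as the one shown above, was covered in none. Peak positions inside the cluster also agreed less between replicates, since 25.6% of the cluster was covered in a single WT replicate, against 7.95% for H2AK119ub in WT mES cells.

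The members were covered unequally, and the order of coverage along the cluster was similar for both marks in mES cells. Hoxc12, Hoxc11 and Hoxc9 were covered over their whole span in all 8 mES libraries, and Hoxc10 in all but 1, a WT H2AK119ub library at 95.9%. For H2AK119ub 3 of 9 spans were full in all 4 libraries, against 3.05% of genes, and for H3K27me3 4 of 9, against 2.43%. Next came Hoxc5, from 92.6% to 96.8% for H2AK119ub and 95.8% to 100% for H3K27me3, and Hoxc6, from 87.8% to 95.9% and from 95.6% to 100%. Hoxc4, Hoxc8 and Hoxc13 were the lowest 3 of the 9 for H2AK119ub, with medians of 75.4%, 74.4% and 60.3%. For H3K27me3 they were the lowest 3 in the KO libraries, whereas in both WT libraries Hoxc8 was at 100% and Hoxc13 and Hoxc4 were the only members below it. Hoxc4 and Hoxc8 overlapped in their H2AK119ub ranges, so these neighbours in the order did not differ beyond their spread, whereas the highest Hoxc13 value, 63.5%, lay under the lowest Hoxc8 value, 70.7%. A promoter window, unlike the gene body, was filled throughout: in all 4 mES H2AK119ub libraries all 9 windows were covered to 100%, against 10.1% of all protein-coding genes. For H3K27me3 in mES cells 7 of 9 windows were filled in all 4 libraries, against 11.7%, the exceptions being Hoxc13 at 76.2% and Hoxc6 at 69.9% in 1 KO library.

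**Figure D2:**
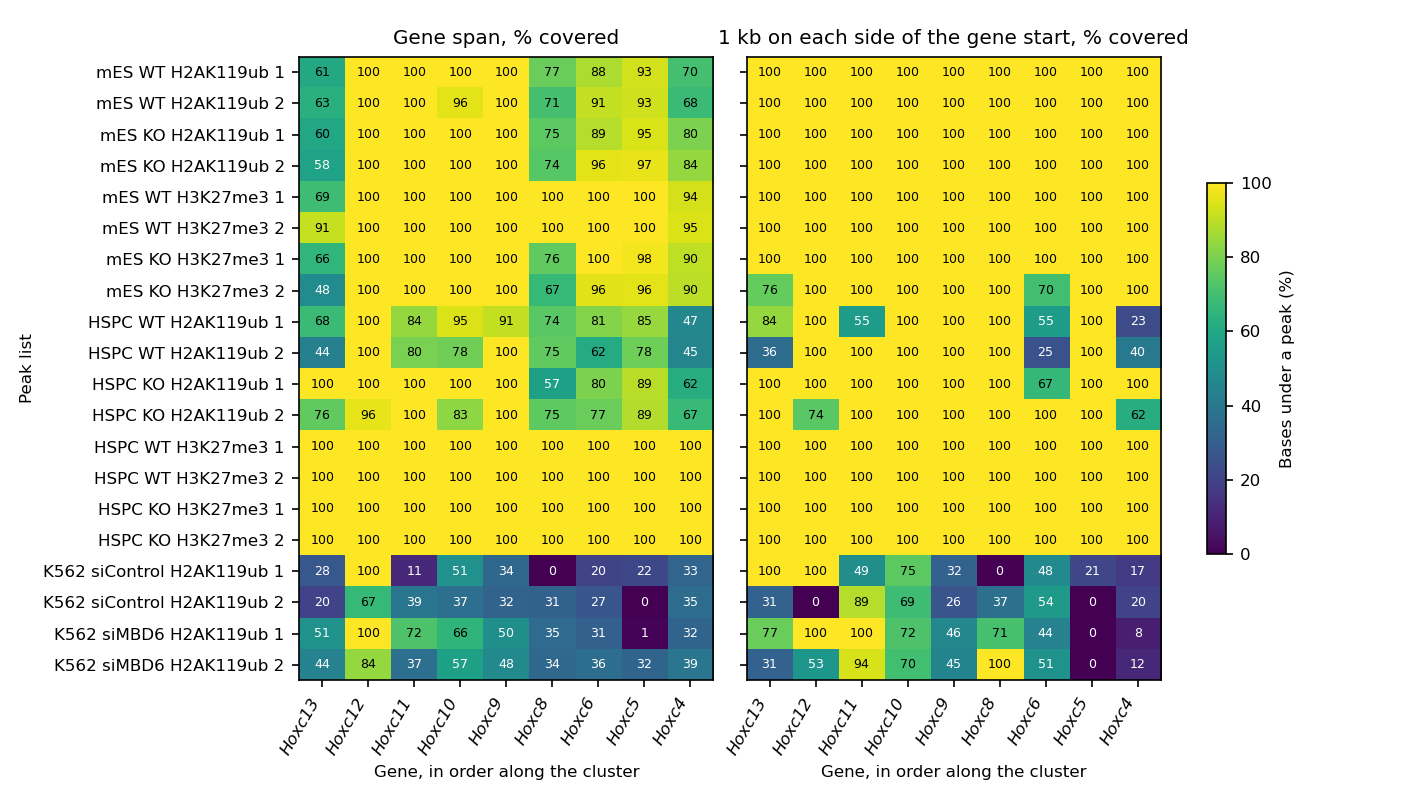
Covered percent of each Hoxc gene (columns, in order along the cluster, the human orthologue in the K562 rows) in each of the 20 libraries (rows), for the gene span at left and for the promoter window at right, with the value printed in each cell. The 4 HSPC H3K27me3 rows are at 100% throughout, Hoxc13 and Hoxc4 are below 100% in every mES row at left and Hoxc8 in all of them but the 2 WT H3K27me3 rows, and the K562 rows are the lowest overall.

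In the HSPC H2AK119ub libraries Hoxc12 and Hoxc9 were the best covered, with medians of 100%, and Hoxc4 the least, with 54.4%. No span was full in all 4 libraries, against 2.31% of genes. The promoter windows of 4 members, Hoxc10, Hoxc9, Hoxc8 and Hoxc5, were filled in all 4 libraries, against 6.9% of all protein-coding genes, and all 9 were touched, against 59%. The lowest promoter window values were 23.2% for Hoxc4 and 25.1% for Hoxc6, each in a WT library. Both belong to starts of long transcripts, and windows of the same width around the principal starts were more covered. In the WT libraries these were at 78.5% and 75.7% for Hoxc4 and 65.6% and 100% for Hoxc6. In both KO libraries they were at 100% for each gene. The narrower 300 bases from RefSeq around the principal start of Hoxc4, chr15:103034145-103034444, with 9 CpG, were covered to 100% in all 16 mouse libraries. They are not printed here because all 300 lie in untranslated exons of the annotation. The RefSeq promoter table held no entry for the other 8 members.

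Comparing HSPCs with mES cells, H2AK119ub covered 78.4% ± 8.04 (SD, n = 4) of the cluster in HSPCs and 87.3% ± 2.6 (SD, n = 4) in mES cells, a difference that did not pass a two-sided exact permutation test over 8 libraries (p = 0.0857, adjusted p = 0.0857 over 4 tests). Each set of 4 joined 2 WT and 2 KO libraries. Within each genotype both HSPC libraries lay below both mES libraries. Permuted within genotype, the exact permutation p was 0.0556, the smallest possible. H3K27me3 covered 100% in all 4 HSPC libraries and 92.2% ± 3.95 (SD, n = 4) in mES cells, a difference of 7.76 percentage points (exact permutation p = 0.0286, the smallest that 70 assignments allow, adjusted p = 0.0571). The groups of libraries did not overlap, and 16.8% of windows of the cluster's length were likewise higher in every HSPC library. By gene span, Hoxc6, Hoxc5 and Hoxc4 had less H2AK119ub coverage in all 4 HSPC libraries than in any mES library, against 20.5% of all protein-coding genes, and 0 members had more, against 20.9%. The lower values of Hoxc6, Hoxc5 and Hoxc4 held over the gene records, and for none of these genes over its principal transcript. That of Hoxc5 was at 100% in every library. That of Hoxc6 was at 100% in every mES library and also in HSPC KO replicate 2. For Hoxc4 it was 70.6% covered in HSPC KO replicate 2 and 68.1% in mES WT replicate 2. Hoxc13 and Hoxc4 had more H3K27me3 coverage in all 4 HSPC libraries, against 27.1%, and 0 had less, against 17.3%. For Hoxc4 this did not hold over its principal transcript, which was also at 100% in both WT mES libraries.

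Relative to each library's own coverage of the genome the order for H2AK119ub turned. The cluster was 12.7 ± 0.916 (SD, n = 4) times as covered as the genome in HSPCs and 9.30 ± 0.593 (SD, n = 4) times in mES cells (exact permutation p = 0.0286, adjusted p = 0.0571), since the HSPC lists covered less of the genome.

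**Figure D3:**
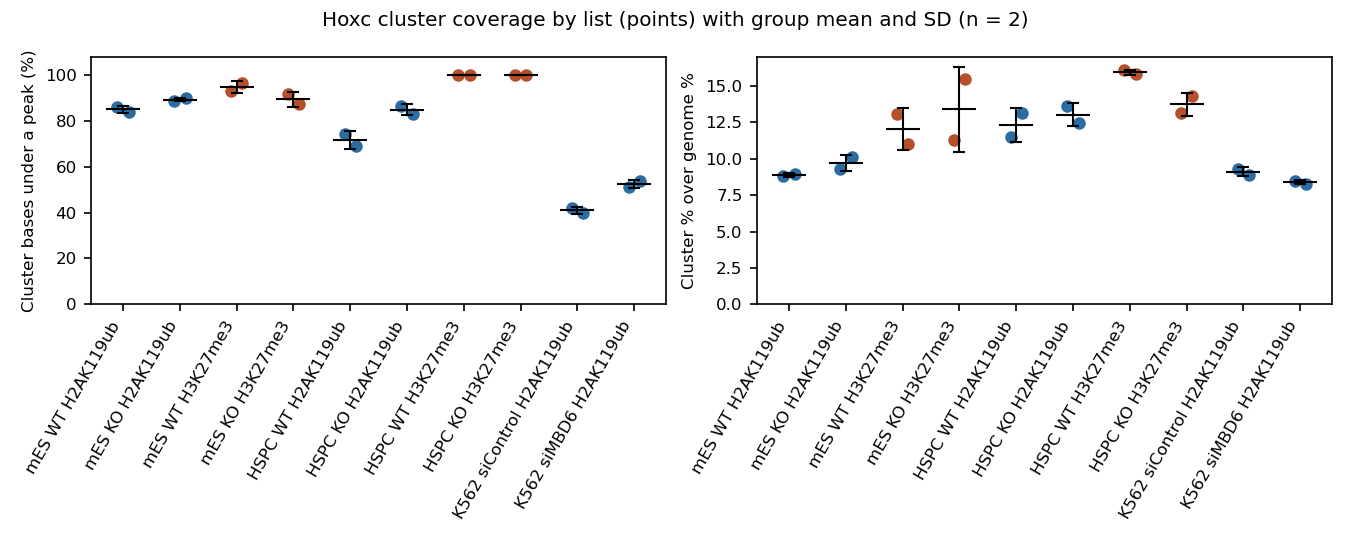
Percent of the Hoxc cluster under a peak (left) and its ratio to the percent of the genome under a peak (right), with 1 point per library, blue for H2AK119ub and orange for H3K27me3, and the mean and SD of each group of 2. At left the 2 HSPC KO H2AK119ub points, 86.6% and 83.3%, lie above the 2 WT points, 74.4% and 69.1%, while at right the same groups overlap.

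Both marks mostly lay on the same bases. In mES cells 94.2% to 99.9% of the cluster bases under H2AK119ub were also under H3K27me3 in the 8 pairs of libraries of 1 genotype, and 86.9% to 97.0% of those under H3K27me3 were under H2AK119ub. In HSPCs all H2AK119ub bases of the cluster were under H3K27me3, and 13.4% to 31.0% of the cluster had H3K27me3 without H2AK119ub. In HSPCs the cluster was 21.7 percentage points less covered by H2AK119ub than by H3K27me3 (exact permutation p = 0.0286, adjusted p = 0.0571), with no overlap between the 4 libraries of each mark, and 26% of windows of that length shared that direction. The spans of Hoxc8, Hoxc6, Hoxc5 and Hoxc4 were less covered in every H2AK119ub library than in any H3K27me3 library, against 13.4% of genes, and 0 were more covered, against 40.8%. Here too the Hoxc5 difference lay outside its principal transcript. That of Hoxc6 did not hold over its principal transcript either, which was at 100% for H2AK119ub in KO replicate 2. In mES cells the difference was 4.92 points (p = 0.0857 in the exact permutation test, adjusted p = 0.0857), and the marks overlapped. By span, Hoxc4 alone of the 9 was less covered in every H2AK119ub library, against 7.67% of genes, and 0 were more covered, against 38.5%. Over the principal transcript of Hoxc4 the marks overlapped. It was at 100% for H2AK119ub in KO replicate 2 and at 75.6% and 75.8% for H3K27me3 in the KO libraries.

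The comparison of Tet2 KO with WT asks how loss of TET2 goes with Polycomb marks. With 2 libraries against 2, an exact permutation test cannot give a p under 0.333, so the values can be described but no difference can pass. For H2AK119ub the cluster was more covered in both KO libraries of both cell types. The mean was 85.2% ± 1.49 (SD, n = 2) in WT and 89.4% ± 0.70 (SD, n = 2) in KO mES cells, 4.18 percentage points apart (exact permutation p = 0.333, adjusted p = 0.417 over 5 tests). In HSPCs it was 71.8% ± 3.81 (SD, n = 2) in WT and 84.9% ± 2.35 (SD, n = 2) in KO, 13.2 points apart (exact permutation p = 0.333, adjusted p = 0.417). Of windows of the cluster's length, 17.5% were higher and 22.5% lower in both KO libraries in mES cells. In HSPCs 29.3% were higher and 6.36% lower. The direction at the cluster was therefore not rare in either cell type, but it was the less common direction in mES cells. The share of the genome covered was 6.47% and 5.24% in the WT HSPC libraries and 6.37% and 6.69% in the KO ones, and its part in the difference was not tested. Divided by it, the cluster stood at 11.5 and 13.2 in WT and 13.6 and 12.5 in KO, where the groups overlap.

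At single genes in HSPCs, H2AK119ub coverage of the span was higher in both KO libraries than in both WT libraries for Hoxc13, Hoxc11, Hoxc5 and Hoxc4 and lower for none, so 4 of 9 members were higher, against 19% of all protein-coding genes, and 0 were lower, against 9.4%. Hoxc5 was higher only over its long record, which holds neighbouring members, as its principal transcript was at 100% in every library. Hoxc13 was 68.0% and 43.7% covered in WT and 100% and 75.6% in KO. Hoxc11 was 84.1% and 79.9% covered in WT and 100% in both KO libraries. Hoxc4 was 46.6% and 45.3% covered in WT and 62.2% and 67.2% in KO. Over its principal transcript the genotypes overlapped, at 57.5% and 66.1% in WT and 65.95% and 70.6% in KO. By principal transcript 3 members, Hoxc13, Hoxc11 and Hoxc6, were higher in both KO libraries and 0 lower. The promoter windows of Hoxc13, Hoxc6 and Hoxc4 were higher in both KO libraries and none was lower, against 18.8% of genes higher and 5.05% lower. Around the last transcript starts 2 members were higher and 0 lower. Hoxc6 was not among them, at 65.6% and 100% in WT and 100% in both KO libraries. The Hoxc13 window was 84.3% and 35.5% covered in WT and 100% in both KO libraries. The median difference of the 9 spans was 7.31 percentage points, against 0 over all genes. The joined domain was 98.6 and 75.6 kb in WT and 112.2 and 135.4 kb in KO (exact permutation p = 0.333, adjusted p = 0.556), and in both KO libraries it began 12.5 and 12.6 kb before Hoxc13, whereas in both WT libraries it began past the end of Hoxc13. That difference depended on the joining distance. With peaks up to 5 kb apart joined, the domain began before Hoxc13 in all 4 libraries and was 170.8 and 168.7 kb wide in WT and 170.1 and 298.5 kb in KO, so the genotypes overlapped, and with 1 kb it began 38.4 kb past the start of Hoxc13 in KO replicate 2.

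In mES cells the H2AK119ub values of the members lay close together. Hoxc5 and Hoxc4 were higher in both KO libraries, against 14.8% of all protein-coding genes, and Hoxc13 was lower, against 15.4%. The Hoxc5 difference again lay in its long record outside the principal transcript. Hoxc4 was 70.4% and 68.3% covered in WT and 80.4% and 84.2% in KO. Hoxc13 was 60.5% and 63.5% covered in WT and 60.1% and 57.8% in KO, so that its WT and KO values were less than 1 point apart at the nearest. All 9 promoter windows were full in both genotypes, so 0 were higher, against 10.2% of genes, and 0 lower, against 8.91%.

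For H3K27me3 in mES cells the direction was the opposite. The cluster was 95.0% ± 2.56 (SD, n = 2) covered in WT and 89.5% ± 3.11 (SD, n = 2) in KO, 5.54 percentage points less (exact permutation p = 0.333, adjusted p = 0.417), and 27.4% of windows of that length were lower in both KO libraries. Hoxc13, Hoxc8, Hoxc5 and Hoxc4 were lower in both KO libraries and none was higher, against 21.5% of all protein-coding genes lower and 5.37% higher. As before, Hoxc5 differed over its long record and not over its principal transcript. By promoter window 0 members were lower in both KO libraries, against 16%, and 0 higher, against 1.9%. Hoxc8 was 100% covered in both WT libraries and 75.6% and 67.2% in KO, where a break lay at its end, at the place where H2AK119ub was also uncovered in mES cells. Hoxc13 was 69.1% and 91.2% covered in WT and 65.9% and 48.2% in KO. The genome share under H3K27me3 was 7.13% and 8.78% in WT and 8.10% and 5.64% in KO. Divided by it, the cluster was 1.35 higher in KO than in WT, the other direction, with p = 0.667 in the exact permutation test. In HSPCs the cluster and all 9 members were at 100% for H3K27me3 in both genotypes, so a list of peaks could show no difference there. Among all genes in these HSPC libraries, 14.9% of spans were higher and 18.4% lower in both KO libraries, and 9.68% of promoter windows were higher and 8.79% lower.

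**Figure D4:**
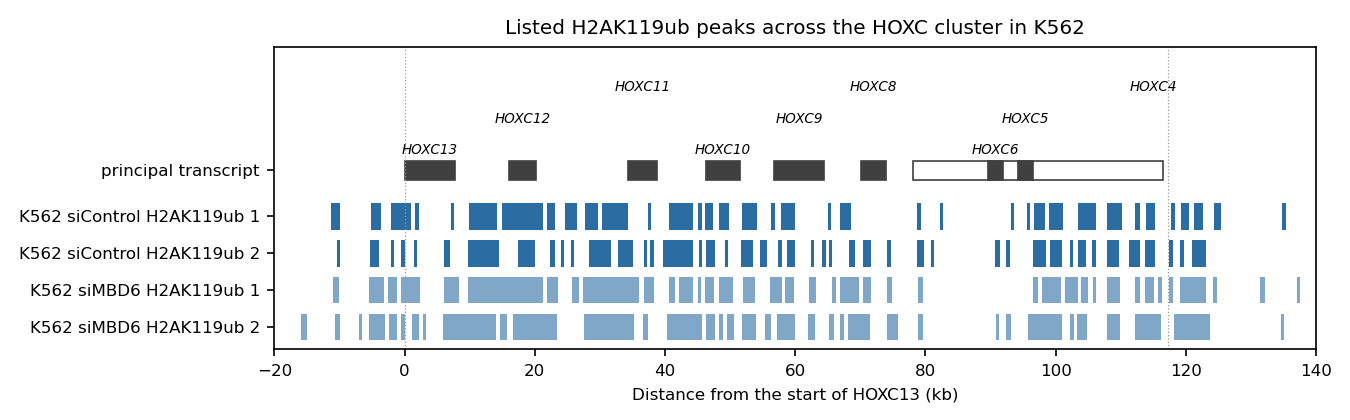
Listed H2AK119ub peaks (bars) along the HOXC cluster in the 4 K562 libraries, one row each, against the distance from the start of HOXC13 in kb, with paler bars for siMBD6, an open box for the long principal transcript of HOXC4 and dotted lines at the cluster's ends. Peaks lie mainly over the first 60 kb and the last 20 kb, and a shared gap of 7991 bp lies over the principal start of HOXC6.

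In K562 H2AK119ub covered 41.9% and 40.0% of the HOXC cluster after siControl and 51.4% and 53.6% after siMBD6, in 28 to 38 peaks. The means were 41.0% ± 1.36 (SD, n = 2) and 52.5% ± 1.61 (SD, n = 2), 11.5 percentage points apart (exact permutation p = 0.333, adjusted p = 0.417). This was the common direction, since 68.8% of windows of the cluster's length were higher in both siMBD6 libraries and the genome share was higher too, at 4.50% in both siControl libraries and 6.04% and 6.48% in the siMBD6 libraries. Divided by that share the cluster stood at 9.32 and 8.90 after siControl and 8.50 and 8.28 after siMBD6, lower in both.

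HOXC12 was the best covered member, at 100% and 66.8% after siControl and 100% and 84.3% after siMBD6. HOXC5, at 21.7% and 0% after siControl and 0.952% and 32.2% after siMBD6, was the least covered on average. No member was filled in all 4 K562 libraries, by span (0.574% of genes) or by promoter window (1.91%), whereas 7 of 9 spans were touched in all 4, against 45.5%, and 6 of 9 promoter windows, against 25.3%. By gene span HOXC13, HOXC10, HOXC9, HOXC8 and HOXC6 were higher in both siMBD6 libraries and none was lower. Of all protein-coding genes, 34.6% were higher and 1.28% lower. HOXC6 was higher only over its long record, which holds HOXC9 and HOXC8. Its principal transcript was 0% and 29.15% covered after siControl and 0% and 21.02% after siMBD6. HOXC13 was 27.7% and 19.95% covered after siControl and 51.5% and 44.5% after siMBD6. HOXC8 was at 0% and 31.0% after siControl and at 34.8% and 33.9% after siMBD6, which put the spread of the siControl replicates above the gap between the groups. By promoter window HOXC11, HOXC9 and HOXC8 were higher in both siMBD6 libraries, against 13.4%, and HOXC4 was lower, against 2.2%. The HOXC4 window, around the start of a long transcript, held 17.04% and 20.2% after siControl and 8.50% and 11.5% after siMBD6, whereas around its last transcript start the order was the reverse, at 61.0% and 61.4% after siControl and 75.1% and 100% after siMBD6.

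Against the other Hox clusters, whose genes number 30 in all, Hoxc in mouse cells was the more covered beside Hoxb for both marks, and beside Hoxd for H2AK119ub. Each cluster was taken from its first gene start to its last gene end, and these spans differ in length. Hoxb spans 173.9 kb for 10 genes and Hoxc 115.8 kb for 9, and in human HOXB spans 200.2 kb and HOXC 117.2 kb. The part of span length in the differences from Hoxb was not tested. Over the 8 mouse libraries of H2AK119ub, Hoxc was 17.8 percentage points above Hoxb and 5.37 above Hoxd, in 8 of 8 libraries each (exact sign-flip permutation p = 0.0078, the smallest possible with 8 libraries, adjusted p = 0.0234 over 9 tests). For H3K27me3 it was 15.2 points above Hoxb in 8 of 8 libraries (exact sign-flip permutation p = 0.0078, adjusted p = 0.0234), and its mean difference from Hoxd was -1.82 points (exact p = 0.125, adjusted p = 0.161). The 8 libraries come from 2 cell types and 2 genotypes, so they are not replicates of 1 condition. Hoxa split by cell type: in mES cells it was 88.4% covered by H2AK119ub and 94.5% by H3K27me3 on average, near Hoxc, whereas in HSPCs it was 62.3% and 72.4% covered against 78.4% and 100% for Hoxc. Over both cell types its mean difference from Hoxc, 12.7 points for H3K27me3, was not past the test (exact p = 0.125, adjusted p = 0.161). In K562, where 4 libraries allow no exact p under 0.125, HOXC was 28.4 points above HOXB in 4 of 4 libraries (exact sign-flip p = 0.125, adjusted p = 0.161). Its mean difference was 4.92 points from HOXA, positive in 3 of 4 libraries (exact p = 0.25, adjusted p = 0.281), and -0.729 points from HOXD, positive in 1 of 4 (exact p = 0.875, adjusted p = 0.875).

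**Figure D5:**
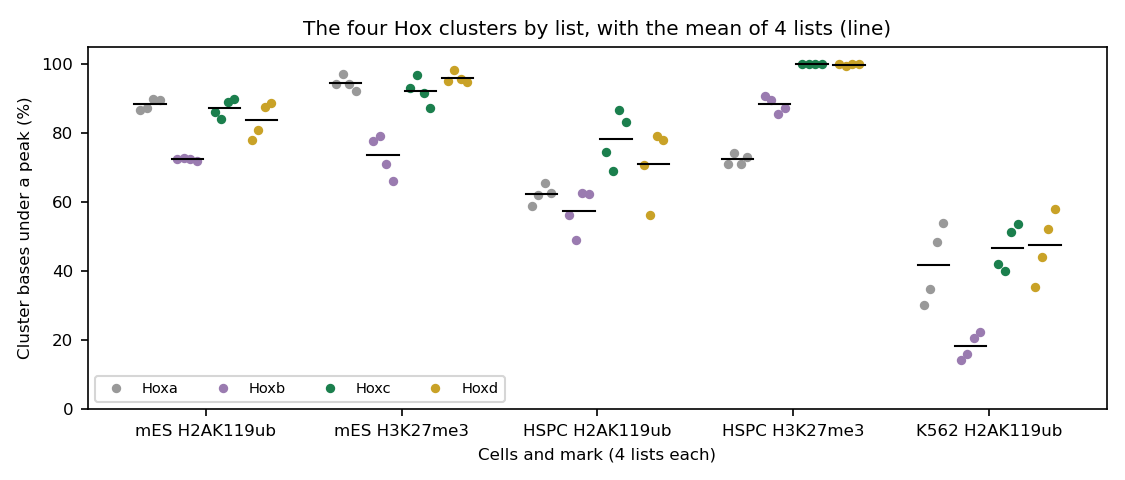
Percent of each Hox cluster under a peak in each library (points) for the 5 sets of 4 libraries, with the mean of each set as a line. In the HSPC H3K27me3 set Hoxc is at 100% in all 4 libraries and Hoxa between 71.1% and 74.4%, while in the mES sets Hoxa and Hoxc lie together above Hoxb.

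Of the 30 other Hox genes, the H2AK119ub span was higher in both KO HSPC libraries for 7, against 19% of all genes, and lower for 0, against 9.4%. In mES cells it was higher in both KO libraries for 11, against 14.8%, and lower for 1, against 15.4%. In K562 it was higher after siMBD6 for 16, against 34.6%, and lower for 0, against 1.28%. For H3K27me3, 4 of the 30 were lower in both KO mES libraries, against 21.5% of all genes, and 0 were higher, against 5.37%, while in HSPCs 2 were lower, against 18.4%, and 0 higher, against 14.9%.

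The antisense RNA gene Hotair, between Hoxc12 and Hoxc11, was 100% covered by H3K27me3 in both WT mES libraries and 83.0% and 43.0% in the KO libraries, and 100% covered in all 4 HSPC libraries. Outside the Hox clusters, the genes of at least 2 kb whose span coverage was most like the mean of the members over the 16 mouse libraries included Lhx2, En2, Egr3 and Hfe2, with mean absolute differences of 2.37, 2.49, 2.79 and 2.89 percentage points. Lhx2 and En2 encode homeodomain proteins, Egr3 a zinc finger transcription factor and Hfe2 the iron regulator hemojuvelin.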

How the data were processed

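CUT&Tag peak lists of 20 libraries were used, with groups and replicate numbers from the sample labels. Per the labels, the authors used Trimmomatic 0.39, Bowtie2 2.4.1 and HOMER 4.9 with mm10 or hg38, and the study's methods name MACS2 in broad mode. Which caller made the deposited lists is not given in the sources used here. The deposited files give a chromosome, a start and an end per peak and no count or score. Depth is therefore unknown. The narrowest common peak, 501 bp, made up 30.4% to 41.4% of each list.

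Covered percent was computed with numpy 2.4.6 and pandas 2.3.3 (Python 3.11.15) on GENCODE M21 (GRCm38, the same build as mm10) and 44 (hg38), checked against bedtools 2.31.1, and the calls were tested on simulated lists. A gene was called higher or lower where the libraries of the groups did not overlap. Single values had two-sided exact permutation tests with Benjamini-Hochberg adjustment. Named were the 9 members, genes within and beside the cluster, Hox genes and cofactors, and genes from the 5 most like the members. Some results that fall under these rules are not reported here. The members, lists and tests were chosen with earlier results of these data known.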

Additional observations from a re-analysis of the deposited data

Results flagged for a closer look

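A pair of results stood out because every library moved one way in one setting and the other way in the other. The H2AK119ub coverage of the Hoxc13 span was lower in both KO libraries in mES cells and higher in both in HSPCs, so that the KO minus WT difference in HSPCs exceeded that in mES cells by 35.0 percentage points. This difference between cell types was not tested.

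In mES cells the Hoxc cluster was more covered by H2AK119ub and less covered by H3K27me3 in both KO libraries. The difference between the effects on the marks was 9.72 percentage points. The lack of overlap that picked this result out also sets the exact permutation p within each mark at the smallest that its 36 arrangements allow, 0.0556, so that p is no separate evidence. The groups hold 2 libraries each, too few for a test of single libraries that stand apart.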

How the results depend on the processing

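Of 183 values recomputed under an alternative, 154 kept their direction and side of the threshold of 0.05, set here on unadjusted p-values. Part of this was fixed by the design. Comparisons of 2 libraries with 2 cannot give an exact p under 0.333, and counts of members have no p. The HSPC H3K27me3 coverage of the cluster was at 100% in every library. The count of 154 is therefore no measure of robustness. Divided by the genome's covered percent, the KO minus WT difference of the cluster for H3K27me3 became 1.35 in mES cells (reversed) and -2.20 in HSPCs, the siMBD6 minus siControl difference -0.719 (reversed), and HSPC minus mES 3.39 for H2AK119ub (reversed, p = 0.0286 in the exact permutation test) and 2.13 for H3K27me3 (exact p = 0.114); H2AK119ub minus H3K27me3 became -3.42 in mES cells (p = 0.0286 by exact permutation) and, for HSPCs, -2.16 (exact p = 0.0571). Permuted within genotype, where the smallest exact p is 0.0556, the differences of 7.76 (HSPC minus mES, H3K27me3) and -21.7 (H2AK119ub minus H3K27me3, HSPCs) were at 0.0556, where the unadjusted exact p had been 0.0286 and the adjusted p, 0.0571, had not passed. The difference of -8.97 (HSPC minus mES, H2AK119ub) was also at 0.0556 in that permutation test. That of -4.92 (H2AK119ub minus H3K27me3, mES cells) was at 0.167. For both the unpermuted-by-genotype exact p had been 0.0857. The domain's difference in width depended on the joining distance: -8.08 kb in mES H2AK119ub and 4.94 kb in K562 with 1 kb, and 16.7 kb in mES H3K27me3 and 11.5 kb in K562 with 5 kb, all reversed. In HSPC H2AK119ub it was 36.7 kb, and 29.7 kb with 1 kb and 64.6 kb with 5 kb. With peaks of at least 1 kb, Hoxc minus Hoxd in K562 became 0.292 (reversed). Members higher minus members lower became 1 in mES H2AK119ub and 5 in K562 with promoter windows of 2 kb on each side, 4 in K562 at the last transcript start, and 0 in mES H2AK119ub with principal transcripts, an alternative chosen after seeing the data.

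Without 1 library at a time, the cluster difference ranged from 3.13 to 5.24 points in mES H2AK119ub, -7.74 to -3.34 in mES H3K27me3, 10.5 to 15.9 in HSPC H2AK119ub and 10.4 to 12.7 in K562. Members higher minus lower ranged from 1 to 3 by span in mES H2AK119ub, from -2 to 0 by promoter in mES H3K27me3 and from -1 to 3 by promoter in K562, where it was -1 without siControl replicate 2. The domain difference ranged from -6.50 to 9.51 kb in mES H2AK119ub and from -11.4 to 92.6 kb in HSPC H3K27me3, negative without WT replicate 2 in the latter, and in the former without KO replicate 1 (-6.50 kb) or without WT replicate 2 (-5.04 kb).

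The labels do not say that equal replicate numbers mark a shared batch, and the deviations of same-numbered libraries from their group means correlated between -0.236 and 0.0386 across genes. With the replicate numbers as a block the cluster differences were the same, for example 13.2 points in HSPC H2AK119ub, with an exact sign-flip p of 0.5, the smallest for 2 pairs. The members counted higher minus lower became 2 by span in mES H2AK119ub and 0 by promoter in K562. With crossed numbers in mES H3K27me3, the comparison with the lowest correlation, 0 members were higher and 4 lower.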
